A study of Mus musculus with 106 samples.

Results

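H3K4me3, a histone mark of active and poised promoters, was compared between bone marrow-derived macrophages (BMDM) of diabetic and control mice after stimulation with lipopolysaccharide (LPS) and interferon-γ (IFN-γ), the state the sample titles call M1. Members were the 12 lists of H3K4me3 peaks with that title, 6 diabetic and 6 control, out of 70 libraries with a peak list in the series. All mice were C57BL/6J, aged 12 to 14 weeks when assigned to a group, and their age at tissue collection is not given. The diabetic mice had received 42 to 45 mg/kg streptozotocin, a toxin of pancreatic beta cells, on each of 5 days, and marrow was collected after 6 weeks if blood glucose exceeded 13.9 mmol/L. Controls carried no diabetes label, and what they were injected with is not given in the sources used here. Marrow of both groups was cultured for 7 days in 5 mmol/L glucose with L929-conditioned medium. In the paper's general protocol the macrophages were then stimulated for 16 h with LPS (100 ng/mL) and IFN-γ (10 ng/mL). The stimulation time of these libraries in particular is not stated. The labels number the libraries 1 to 6 in each group and do not say which animal each came from, so the tests measure the spread between these libraries.

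Trimethylation of lysine 4 on histone H3 is laid down around transcription start sites by complexes that contain KMT2 or SETD1 enzymes and is removed by KDM5 and other demethylases. CpG islands, stretches rich in the dinucleotide CG, recruit these complexes through proteins with a CXXC domain, so many housekeeping promoters carry the mark in every cell type. LPS signals through Toll-like receptor 4 to NF-κB and the interferon regulatory factors, and IFN-γ acts through its own receptor on a partly shared set of genes. In chromatin immunoprecipitation sequencing an antibody to the mark pulls down DNA fragments, and intervals with more fragments than the input DNA are called as peaks.

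A gene was called marked when a peak among the 10000 strongest of a list lay within 1000 bp of any of its annotated start sites. Strength was the deposited −log10 p of the peak, and rank 1 is the strongest, so a positive difference in rank (diabetic minus control) places a promoter lower, or weaker, in the diabetic lists. Width is the summed length in bp of the peaks that touch the promoter at any of its start sites. Separate peaks are added together, so a wide or broad promoter need not be a single domain. The full lists held 51382 to 277213 peaks covering 27.2 to 140 Mb, and the −log10 p at place 10000 ran from 13 to 54.3, so equal length did not mean equal strength. Libraries 3 of both groups had the lowest −log10 p at that place, 16.5 in the diabetic and 13 in the control library. Read totals are not in the lists, and depth is unknown. In diabetic libraries 1 and 2 and control library 6 only 2.67%, 8.13% and 1.83% of the fragment pileups recovered from weak peaks were whole numbers within 0.02, against 99.3% or more in the other 9, so the scaling of these 3 libraries is unclear. The comparisons were also computed without them and without libraries 3.

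The marked promoters were first read for what their sequence shares. Of 21938 protein-coding genes, 2444 (11.1%) were marked in all 12 lists, 10679 in some and 8815 (40.2%) in none. The 300 bases around a gene's annotated 5′ end (250 before it, 50 from it on) held a median of 23 CG dinucleotides in genes marked in all 12 lists and 3 in genes marked in none, with 13, 17, 20 and 21 in genes of 1 to 3, 4 to 6, 7 to 9 and 10 or 11 lists. The middle 50 percent of genes spanned 16 to 31 CG in the first class and 1 to 6 in the last. This is a description over genes, which share libraries and neighbors and are not replicates. The 6 stretches below are shown because they span that range: Ipo7, Foxp4 and Phf23 were marked in all 12 lists and had no overlap between diabetic and control ranks, Oasl1 was marked in 5 lists, and the inflammatory cytokine gene Il6 and the macrophage marker Cd68 in 0. Over all 2444 genes marked in the 12 lists, 4 had no such overlap. Each is written 5′ to 3′ on the strand of the gene from RefSeq GRCm38.p6, with every CG in capitals.
Ipo7, chr7:110018024-110018323, plus strand, 18 CG: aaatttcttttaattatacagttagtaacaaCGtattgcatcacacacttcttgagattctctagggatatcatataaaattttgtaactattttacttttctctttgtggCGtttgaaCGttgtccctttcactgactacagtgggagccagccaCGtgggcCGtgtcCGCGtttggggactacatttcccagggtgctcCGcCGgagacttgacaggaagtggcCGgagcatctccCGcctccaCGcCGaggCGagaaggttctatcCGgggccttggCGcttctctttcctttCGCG
Foxp4, chr17:47924596-47924895, minus strand, 33 CG: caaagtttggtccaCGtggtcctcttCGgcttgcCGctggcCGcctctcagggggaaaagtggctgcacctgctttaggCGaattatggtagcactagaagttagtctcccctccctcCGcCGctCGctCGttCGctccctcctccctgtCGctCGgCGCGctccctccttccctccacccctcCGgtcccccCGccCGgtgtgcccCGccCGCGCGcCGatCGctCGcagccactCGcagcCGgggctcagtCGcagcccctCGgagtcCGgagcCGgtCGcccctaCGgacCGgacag
Phf23, chr11:69995527-69995826, plus strand, 19 CG: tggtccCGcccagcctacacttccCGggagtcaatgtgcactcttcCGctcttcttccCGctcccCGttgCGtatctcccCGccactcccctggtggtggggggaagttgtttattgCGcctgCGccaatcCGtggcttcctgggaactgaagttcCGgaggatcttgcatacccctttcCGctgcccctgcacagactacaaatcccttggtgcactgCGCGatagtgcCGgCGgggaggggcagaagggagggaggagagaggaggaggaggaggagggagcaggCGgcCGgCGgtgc
Oasl1, chr5:114922990-114923289, plus strand, 8 CG: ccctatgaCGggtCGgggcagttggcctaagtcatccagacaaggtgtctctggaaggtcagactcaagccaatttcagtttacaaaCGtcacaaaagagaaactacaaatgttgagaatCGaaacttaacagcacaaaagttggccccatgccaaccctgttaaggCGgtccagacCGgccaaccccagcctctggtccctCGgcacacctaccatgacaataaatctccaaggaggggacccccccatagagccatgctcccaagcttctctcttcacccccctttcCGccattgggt
Il6, chr5:30012864-30013163, plus strand, 3 CG: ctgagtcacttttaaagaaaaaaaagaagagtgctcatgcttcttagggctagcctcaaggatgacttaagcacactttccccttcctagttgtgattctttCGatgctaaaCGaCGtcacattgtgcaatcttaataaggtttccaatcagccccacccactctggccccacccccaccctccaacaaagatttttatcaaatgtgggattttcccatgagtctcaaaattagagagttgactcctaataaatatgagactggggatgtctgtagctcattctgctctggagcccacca
Cd68, chr11:69666104-69666403, minus strand, 4 CG: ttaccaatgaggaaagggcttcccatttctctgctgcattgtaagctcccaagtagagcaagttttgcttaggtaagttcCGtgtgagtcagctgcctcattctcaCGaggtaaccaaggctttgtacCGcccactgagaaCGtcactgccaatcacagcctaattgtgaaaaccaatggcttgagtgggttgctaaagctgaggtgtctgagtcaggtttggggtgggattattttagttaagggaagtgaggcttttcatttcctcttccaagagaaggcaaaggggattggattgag

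The share of all genes with at least as many CG as these stretches was 35.8% for Ipo7, 9.34% for Foxp4, 33.6% for Phf23, 58.6% for Oasl1, 80.1% for Il6 and 74.3% for Cd68. CG density and occupancy did not match in every gene. Hk1, which encodes hexokinase 1, had 1 CG at its outermost start site and was marked in all 12 lists, and the interferon-induced protease gene Usp18 had 20 and was marked in 0. A peak at any annotated start site marks a gene, so the Hk1 peak may lie away from the stretch with 1 CG.

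**Figure D1:**
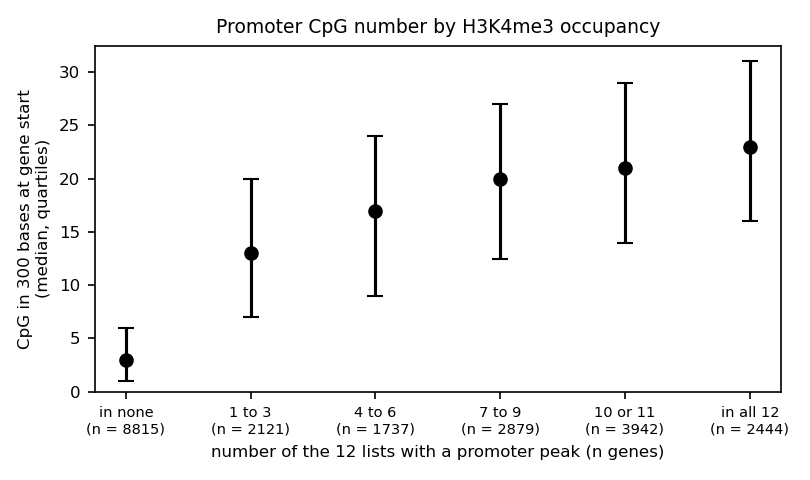
Points give the median number of CG dinucleotides in the 300 bases around the gene's 5′ end and bars the quartiles, for genes grouped by how many of the 12 lists held a promoter peak. The median rises from 3 in genes held by no list to 23 in genes held by all 12.

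The macrophage label was checked against marker genes. Of 12 macrophage markers, 3 were marked in all 12 lists, among them the lineage transcription factor gene Cebpa and the efferocytosis receptor gene Mertk, whereas Adgre1 (F4/80), Cd68, Csf1r, Itgam, Lyz2, Fcgr1 and Mrc1 were marked in 0, and the lists held 3 to 5 of the 12 in either group. Even in the lists as deposited Itgam was marked in 0 of 12, Adgre1 in 1 and Lyz2 in 3, while Cd68 was marked in 11 and Csf1r in 9. Spi1, the gene of the macrophage master regulator PU.1, stood at ranks 64, 980 and 3311 in diabetic libraries 1 to 3 and was outside the top 10000 in diabetic libraries 4 to 6. In control libraries it stood at 64, 7974, 3593, 3549 and 76 and was outside in library 4. It was thus near the top of some lists and missing from others within each group. Of 8 neutrophil markers 0 were marked in a top list, although the lists as deposited held the granule genes Mpo and Ltf in 10 of 12. The B cell gene Pax5, which holds the mark in 10 lists here, was also marked in all 12 lists of hematopoietic stem cells (HSC, marrow depleted of mature lineages). Of 8 stem and progenitor markers, Myb and Hoxa9 were marked in all 12 lists and 1 in none. A diabetic list held 2 to 6 of the 8 and a control list 4 to 6, a larger part than of the macrophage markers in most lists. Most surface and enzyme markers of macrophages were thus absent from the top 10000 peaks, and the label was taken from the sample titles. In bulk samples fewer cells of a type cannot be told apart from less mark per cell.

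The strongest and the widest promoters were ordered by their means over the 12 lists. By rank, the first were H2-Q7 and H2-Q6, nonclassical major histocompatibility class I genes, with mean ranks of 144 and 221. They belong to a family of near-identical copies, so reads may have been divided among copies. Fcgr3, which encodes an activating Fc receptor of macrophages, followed with ranks from 11 to 2530 (median 637) in diabetic and from 6 to 1255 (median 92) in control libraries, and its width lay between 3321 and 4565 bp in all 12. The widest was Ahnak2, at 9148 to 10058 bp (median 9272) in diabetic and 9946 to 10962 bp (median 10454) in control libraries. Diabetic library 4 was the one diabetic library inside the control range, and the log2 difference of −0.20 ± 0.14 (limma estimate ± SE) did not pass (adjusted p = 0.998). Ahnak2 was the one gene of 4000 bp or more in every list. Gse1, Nol4l, Ptprs, Egr3, Bcl11a, Zmiz1, Ptch1, Gnas and Rreb1 came next, with geometric mean widths of 7203 down to 4825 bp, and each was marked in at least 11 of 12 HSC lists. Rank and width were nearly unrelated across the 2444 genes (Spearman rho −0.046 between the means over the 12 lists).

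Whether diabetes changed the overall shape of promoter marking was asked with 4 values per library. Diabetic lists marked 9090, 8958, 7774, 9092, 8983 and 9355 genes and control lists 9149, 9120, 8018, 9384, 9379 and 8986. The groups overlapped, with means of 8875 ± 558 and 9006 ± 508 (SD, n = 6 each, exact permutation p = 0.541, adjusted p = 0.973 over the 4 values, all two-sided). Median width was 1285, 1161, 999, 978, 914 and 1167 bp in diabetic and 1193, 1084, 760.5, 1102, 1184 and 1191 bp in control libraries, a log2 difference of 0.0041 (exact permutation p = 0.991, adjusted p = 0.991). Broad promoters, of 4000 bp or more, numbered 192, 139, 47, 40, 31 and 83 in diabetic and 146, 87, 17, 67, 127 and 162 in control lists (means 88.7 ± 64.3 and 101 ± 54.5, n = 6, exact permutation p = 0.729, adjusted p = 0.973). The Spearman rho of rank with promoter GC over marked genes was 0.083, 0.044, 0.038, 0.0027, −0.044 and −0.028 in diabetic libraries and between −0.044 and 0.00015 in control libraries (difference 0.037, exact permutation p = 0.0996, adjusted p = 0.398). The smallest p this design can give is 0.00216.

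**Figure D2:**
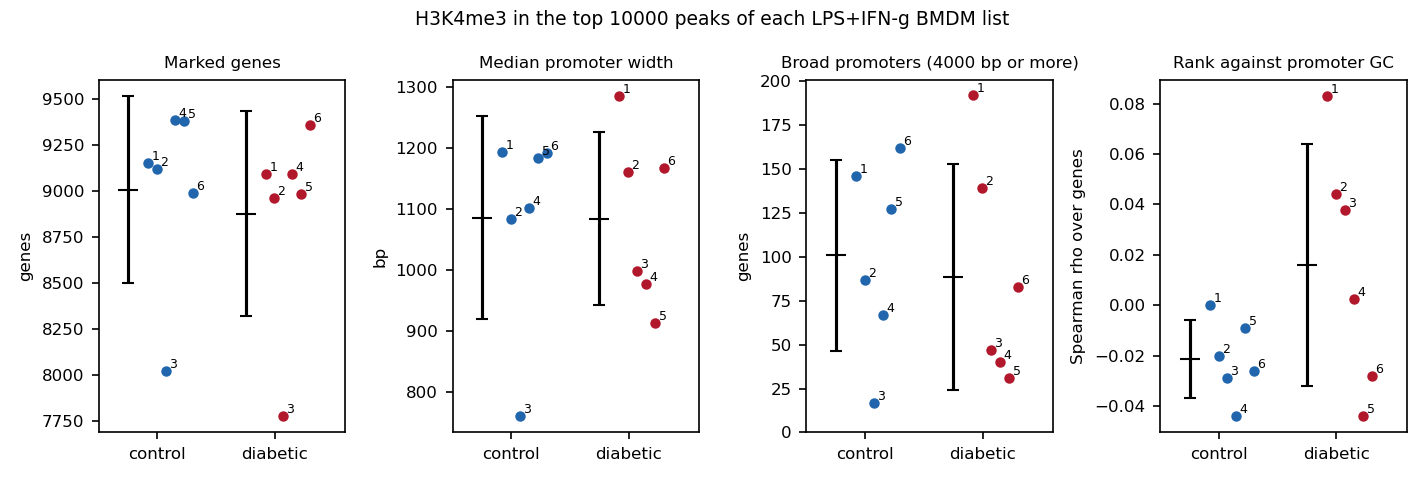
Each point is 1 library, numbered, with the group mean and SD as a black bar. The panels give marked genes, median promoter width in bp, broad promoters and the Spearman rho of rank with promoter GC, and the groups overlap in each. Library 3 has the fewest marked genes in both groups, 7774 and 8018.

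Agreement between libraries was low for rank and higher for width. Over the 2444 genes marked in all 12 lists, Spearman rho of rank was 0.0079 to 0.286 between libraries of the same group (median 0.113, 30 pairs) and 0.029 to 0.314 between groups (median 0.104, 36 pairs). The mean distance (1 minus rho) was 0.876 between and 0.882 within groups, a difference of −0.0056 (one-sided exact permutation p = 0.569), so a separation of diabetic from control libraries was not detectable. For width the median rho was 0.755 within and 0.756 between groups. In the lists as deposited, where 13073 genes were marked in all 12, rho of rank was 0.303 to 0.747. The median SD of a gene's rank within a group was 2249 places in diabetic and 2289 in control libraries, which sets how small a difference could be seen.

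No promoter passed the test for a difference in rank. Of 2444 genes, 0 (0%) were called by limma at an adjusted p under 0.05, 97 had an unadjusted p under 0.05 and the lowest adjusted p was 0.824. An exact permutation test per gene called 0, with 124 at an unadjusted p under 0.05, but this test could hardly call a gene: 106 of the 2444 would have had to reach its smallest p of 0.00216, and 4 did. A gene reaches that p only where the groups do not overlap, so 4 of the 2444 genes had no overlap. Their share is no larger than the p of 0.00216 itself. Without the 3 libraries of unclear scaling limma called 0 of 3113 genes (158 at an unadjusted p under 0.05), and without libraries 3 it called 0 of 3639 (134). By sign alone 1138 genes ranked higher and 1306 lower in diabetic lists, the median difference was 113 places, and the 5th and 95th percentiles were −2082 and 2252 places. The genes described next are those with the smallest unadjusted p, and none is called.

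Among promoters that stood higher in diabetic lists, Phf23, whose product has a PHD finger that binds H3K4me3, ranked 372, 3304, 946, 402, 338 and 1111 in diabetic and 6035, 3675, 6064, 5585, 5352 and 7900 in control libraries. Every diabetic rank was above every control rank. The difference was −4690 ± 1462 places (limma, SE, adjusted p = 0.824), and the gene lies at chr11:69995777-70000009 (GRCm38). Hist1h3g, a replication-dependent histone H3 gene of a multigene family whose reads may be shared, had medians of 2344 and 7608. Its range of 205 to 7068 in diabetic libraries overlapped that of 6284 to 8736 in controls. Tubgcp4, a component of the gamma-tubulin complex, and Zscan29 share 1 promoter and so have the same ranks, with medians of 1020 and 6892. Irf5, a transcription factor of Toll-like receptor signaling that promotes inflammatory macrophage programs, ranked 1087, 2232, 2253, 7450, 1602 and 2275 in diabetic and 6384, 8936, 8984, 2468, 5178 and 8064 in control libraries. Library 4 was out of order in both groups, and the difference was −3853 ± 1552 places (adjusted p = 0.971). Zfp324, Ift57, Ankrd46, Smn1 and Letm2 completed the 10, with differences of −4360 to −2116 places and overlapping groups.

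Among promoters that stood lower in diabetic lists, Ipo7, a nuclear import receptor gene, ranked 1937, 5608, 1834, 2918, 1902 and 3805 in diabetic and 741, 502, 348, 260, 358 and 611 in control libraries. Foxp4, a forkhead repressor gene, ranked 4133, 3751, 2349, 5155, 2670 and 1219 in diabetic and 651, 627, 320, 439, 373 and 897 in control libraries. The groups did not overlap in either gene, but the differences of 2531 ± 914 and 2662 ± 973 places did not pass (adjusted p = 0.971 for both). Adar, an interferon-inducible RNA-editing enzyme, ranked 107 to 1423 in control libraries and was spread from 92 to 9561 in diabetic ones. Shq1, a factor of small nucleolar RNP assembly, had medians of 4720 and 529, with control library 6 at 3996 and the other controls between 7 and 540. Hoxa7, a homeobox gene, had medians of 3660 and 905 and was held by 0 of 12 lists of H3K27ac, a mark of active promoters and enhancers, in the same cell state. The remaining genes were Gpr108, Cplane1, Eif3d, Racgap1 and Zfp322a, with differences of 3619 to 4255 places and overlapping groups.

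**Figure D3:**
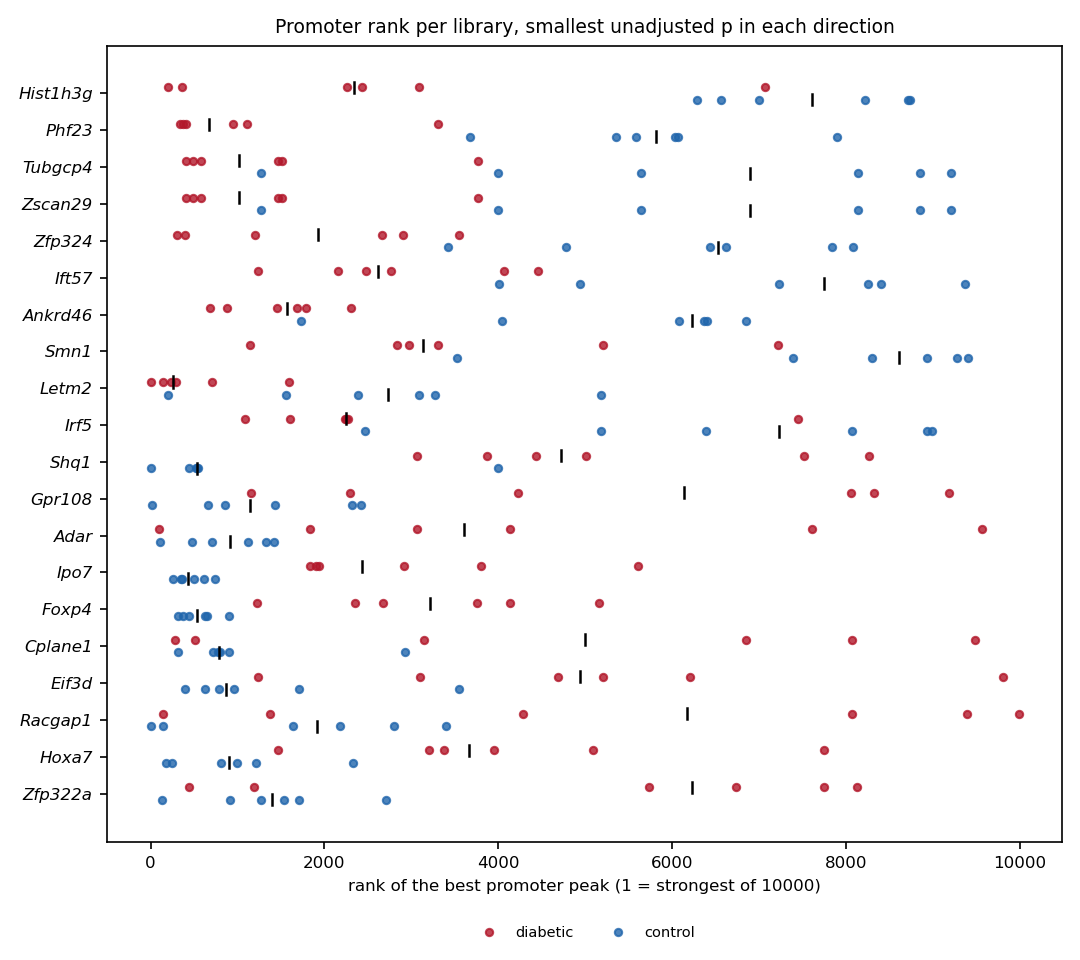
Ranks of the best promoter peak in each of the 12 libraries (1 is the strongest of 10000) for the 10 genes per direction with the smallest unadjusted p, with diabetic in red, control in blue and medians as black ticks. Of these, Phf23, Ipo7 and Foxp4 are the 3 without overlap between the groups, beside 4 of all 2444 genes tested. None of the 20 passed the adjusted test.

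Width was tested in the same way. Of the 2444 genes 0 (0%) were called by limma, 68 had an unadjusted p under 0.05, the lowest adjusted p was 0.998, and an exact permutation test per gene, with the same limit of 106 genes, called 0 (65 at an unadjusted p under 0.05, and 1 at the smallest p). Serpinb6a, a gene of an intracellular serine protease inhibitor, was 1038, 968, 775, 904, 1675 and 970 bp wide in diabetic and 1980, 1544, 1347, 1673, 1749 and 1759 bp in control libraries. Diabetic library 5 was the one inside the control range. The log2 difference was −0.74 ± 0.19 (SE, adjusted p = 0.998), and without diabetic library 5 it was −0.94 ± 0.093 and the only gene called (limma, adjusted p = 8.5e-04). In the lists as deposited, where weaker peaks also count, the difference was 0.11 (adjusted p = 1.00), so the narrower width was not seen there. Lrba, Gemin7, the spectrin gene Sptbn1 and the Wnt receptor gene Fzd5 were narrower by value, by −0.55 to −1.01. Klf3, Nt5m, Ppp2r5c, the translation repressor gene Eif4ebp1, Stt3a and Gas6, a ligand gene of the Axl and Mertk receptors, were wider by 0.40 to 1.03 and did not pass either. Gas6 was 3061, 2529, 978, 1570, 1067 and 1126 bp wide in diabetic and 633 to 1105 bp (median 1067) in control libraries.

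**Figure D4:**
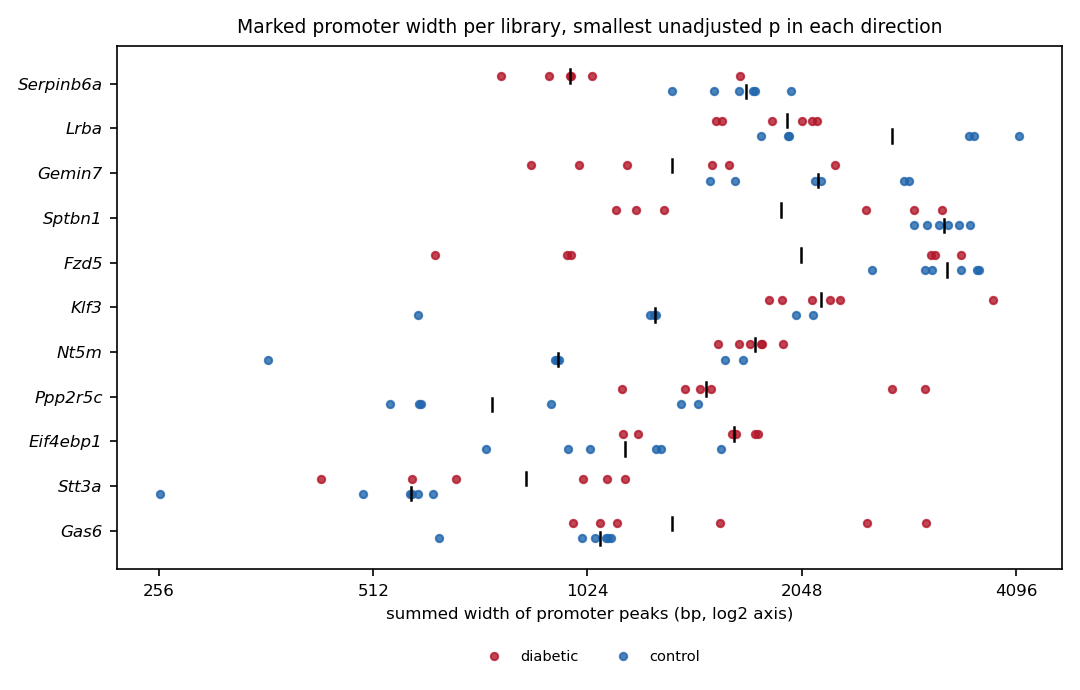
Summed width of the promoter peaks in bp, on a log2 axis, in each of the 12 libraries for 11 of the genes with the smallest unadjusted p, 5 narrower and 6 wider by value, with diabetic in red, control in blue and medians as black ticks. Serpinb6a is separated except for 1 diabetic library at 1675 bp, and none of the 11 genes passed the adjusted test.

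Occupancy was tested on genes whose number of marked lists could reach a p of 0.05. Of 1903 such genes 0 (0%) were called by Fisher's exact test after adjustment by Benjamini-Hochberg, 18 had an unadjusted p under 0.05 and the lowest adjusted p was 1, and limma on presence or absence called 0 of 10679 (277 at an unadjusted p under 0.05). A call by the adjusted Fisher's test needed 83 genes marked in 6 lists of one group and 0 of the other, and there were 0 such genes, so this test could hardly call a gene. Each gene named next had a promoter peak in all 12 lists as deposited, and only its place in the top 10000 differed. Marked in 6 diabetic lists and 1 control list were Rrp12, a ribosome assembly gene, and Cpsf1, a subunit gene of the factor that cleaves pre-mRNA 3′ ends. Eif4enif1, which encodes a transporter of a translation initiation factor, was marked in 5 diabetic lists and 0 control lists (exact p = 0.0152 for each of these genes). In the other direction 8 genes were marked in 1 diabetic and 6 control lists, among them the splicing factor gene Sf3b4 and the vitamin B6 phosphatase gene Pdxp, and 6 genes in 0 and 5, among them Erg, a transcription factor gene of stem and endothelial cells, and Rab3b. Apip and Pdhx, which encodes a pyruvate dehydrogenase component, share 1 promoter and were marked in 0 and 5 lists. Other genes of the 10 with the smallest p in each direction were Spata48 and Zpbp (1 shared promoter), Bclaf1, Rplp2 and Eya1 with 5 diabetic lists and 1 control list, and 9030612E09Rik, Podn, Zc3hav1l and Zfp385c with fewer diabetic lists.

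Genes at the center of the study were then read one by one. Il6, Il1b, Chil3, Retnla and Cd68 were marked in 0 of 12 top lists, and in the lists as deposited Il6 was marked in 3, Il1b in 1 and the alternative activation genes Chil3 and Retnla in 0. Tnf was held by diabetic library 1, at rank 9196, and by no other. Nos2, the inducible nitric oxide synthase gene, ranked 6317, 9723 and 8566 in diabetic libraries 3, 4 and 6 and 5961, 8416, 6019, 7974 and 8340 in control libraries 2 to 6, so it sat in the lower ranks of both groups (3 and 5 lists, Fisher's exact p = 0.545). Lgals3 was marked in 3 diabetic lists and 1 control list. Hk1, a first enzyme of glycolysis, ranked 3264, 1854, 3357, 1328, 3459 and 7856 in diabetic and 388, 2876, 2911, 6525, 6881 and 9180 in control libraries, a difference of −1274 ± 1529 places (limma, adjusted p = 0.971) within overlapping groups. Runx1, a transcription factor gene of hematopoiesis, ranked 3359, 5234, 3815, 2503, 3087 and 4914 against 2617, 6276, 7776, 3784, 1024 and 4046 (−435 ± 1522 places, adjusted p = 0.979). Its width was 2571 to 3780 bp (median 3161) in diabetic and 2083 to 4127 bp (median 3400) in control libraries, a log2 difference of −0.091 ± 0.093.

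Gene groups were described by how many lists held them. Among all protein-coding genes 29.1% were marked in 10 or more lists. The share was 86.7% (13 of 15) for NF-κB subunits and inhibitors, 86.7% (13 of 15) for H3K4 methyltransferases and partners, 85.7% (6 of 7) for Runx genes and partners, 71.4% (5 of 7) for H3K4 demethylases and 64.0% (16 of 25) for glucose transport and glycolysis. It was 10.0% (2 of 20) for inflammatory cytokines, 5.00% (1 of 20) for chemokines and their receptors and 6.90% (2 of 29) for interferon-stimulated genes. In each of the 26 lists 0 genes were called for rank, width or occupancy, but some lists held few or 0 genes that could be tested. Of inflammatory cytokines 0 could be tested for rank or width and 1 for occupancy. For chemokines and their receptors it was 0 for each. Of interferon-stimulated genes 2 were tested for rank and width and 7 for occupancy.

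Within those groups the largest rank differences by value were read at both ends. Kmt2d, an H3K4 methyltransferase gene of enhancers, ranked 3590, 4301, 211, 6677, 448 and 2935 in diabetic and 7315, 6663, 9343, 4348, 4719 and 3658 in control libraries (−2981 ± 1545 places, limma adjusted p = 0.971). Mvk, the mevalonate kinase gene, differed by −2633 ± 1548 places and Irak3, an inhibitor gene of Toll-like receptor signaling, by −2615 ± 1542. Nfkbiz, which encodes a nuclear IκB protein that licenses secondary response genes, had medians of 535 in diabetic and 2910 in control libraries, and the ranges of 356 to 3254 and 68 to 5960 overlapped. In the opposite direction the stem cell factor gene Myb differed by 2251 ± 1437 places. Myb stood at 3729 to 5004 in diabetic libraries and at 889 to 5194 in control libraries, where library 4 was the exception to ranks of 2539 or stronger. Tnfaip3, which encodes the NF-κB inhibitor A20, differed by 1384 ± 1211 places. The glycolytic gene Eno2 (1957 ± 1550), the SETD1 complex gene Wdr82 (2021 ± 1557) and H2-K1, a class I antigen presentation gene (1770 ± 1523), also ranked lower by value in diabetic lists, and Socs3 (−1930 ± 1443), a cytokine signaling inhibitor gene, and Pltp (−2055 ± 1389), a lipid transfer gene, higher. None of the extremes of the lists passed (limma, adjusted p of 0.971 or more).

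Genes of glucose metabolism were compared by the number of lists that held them. Aco1, cytosolic aconitase, was marked in 6 diabetic lists and 2 control lists (Fisher's exact p = 0.0606), and Pgam1, of lower glycolysis, in 6 and 3. Over the 25 genes of glucose transport and glycolysis the signs were balanced, with 7 in more diabetic than control lists and 8 in fewer. Of 25 tricarboxylic acid cycle genes a diabetic list held 20, 23, 16, 22, 19 or 21 and a control list 19, 18, 13, 19, 19 or 18. The lowest number, 13, was in control library 3. By sign 13 of the 25 genes (52%) were in more diabetic than control lists and 6 (24%) in fewer, beside 18.5% and 19.9% of all 21938 genes. Without the libraries numbered 3 the numbers were 9 (36%) and 3 (12%), beside 15.8% and 17% of all genes. A gene in no list can show no sign. Of these 25 genes 0% were in none, beside 40.2% of all genes, so the shares are not directly comparable.

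The number of interferon-stimulated genes held ranged widely among libraries of each group. Of 29 such genes, diabetic lists 1 to 6 held 15, 12, 22, 5, 4 and 5 and control lists 12, 5, 11, 4, 8 and 7, so that the highest counts were in libraries 1 and 3 of both groups and in diabetic library 2. Diabetic library 3 was the only one with Mx1, Ifit2, Oas1a, Oasl2, Ddx58 and Zbp1, antiviral effector and sensor genes. Oas3, an oligoadenylate synthetase gene, was held by diabetic libraries 1 to 3 at ranks 6357, 7013 and 1004 and by no control library (Fisher's exact p = 0.182). Oasl1 was held by diabetic libraries 1 to 4 at 8513, 8278, 4073 and 8118 and by control library 1 at 661. Ifih1, which encodes the RNA sensor MDA5, was marked in 6 diabetic lists and 3 control lists (exact p = 0.182). Cmpk2 and Irf1 were in all 12, and Gbp2, Gbp3, Gbp5, Ifit1, Ifit3 and Usp18 in 0. By sign 13 of the 29 (44.8%) were in more diabetic than control lists and 3 (10.3%) in fewer, beside 18.5% and 19.9% of all genes. These shares are not directly comparable, because 20.7% of the 29 and 40.2% of all genes were in no list and can show no sign. Of the 13, 6 were held by diabetic library 3 alone, and without the libraries numbered 3 the numbers were 7 and 4, beside 15.8% and 17% of all genes. Diabetic library 3 also had the fewest marked genes of its group and the second lowest −log10 p at place 10000, and diabetic libraries 1 and 2 are of unclear scaling. The part of these features in the interferon counts was not tested.

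**Figure D5:**
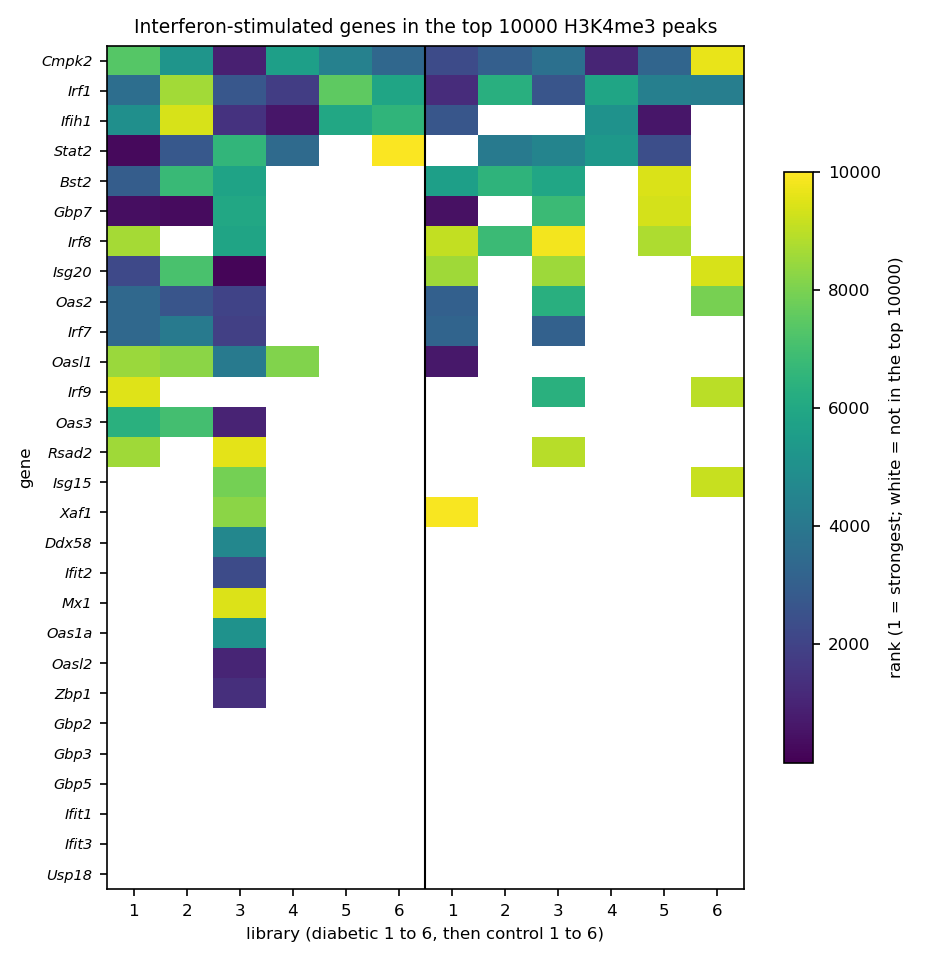
Each cell gives the rank of an interferon-stimulated gene's promoter in 1 library, for 28 of the 29 genes, from dark (strong) to yellow (place 10000), and white where the promoter was outside the top 10000. Libraries run diabetic 1 to 6, then control 1 to 6. Over all 29 genes, diabetic library 3 holds 22 and diabetic libraries 4 to 6 hold 4 or 5.

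The same promoters were set beside the other cell states, to see where the stimulated macrophages differ. Against 11 lists of unstimulated BMDM with the same culture, Fisher's exact test called 0 of 6327 genes (0%, 180 at an unadjusted p under 0.05), and 0 were also called within either disease group. The disease difference with stimulation minus that without was called in 0 of 1508 genes (0%, limma over 23 BMDM libraries, 64 at an unadjusted p under 0.05, lowest adjusted p = 0.723). For Phf23 it was −5462 places, for Irf5 −3908, for Ipo7 3124 and for Hoxa7 5725, none past the threshold. In unstimulated BMDM the mean ranks of Phf23 were 2429 in diabetic and 1656 in control libraries, and those of Irf5 were 3741 and 3686. By mean, neither stood higher in unstimulated diabetic lists. Phf23, Irf5, Ipo7 and Hoxa7 were picked for their difference in stimulated lists, which favors a smaller difference without stimulation. The other genes named as higher went both ways without stimulation, with absent promoters set at place 10001. Hist1h3g (−2058 places), Letm2 (−2283), Ift57 (−1551), Smn1 (−525), Tubgcp4 and Zscan29 (−94 each) stood higher in diabetic lists. Zfp324 (447) and Ankrd46 (1511) stood lower. The genes named as lower also went both ways. Without stimulation Zfp322a (−3437 places), Hoxa7 (−2552), Shq1 (−1235), Gpr108 (−667) and Ipo7 (−593) stood higher in diabetic lists. Cplane1 (2923), Adar (1097), Foxp4 (813), Racgap1 (785) and Eif3d (536) stood lower.

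Against 12 HSC lists, 97 of 6243 genes (1.55%) were marked in more and 127 (2.03%) in fewer stimulated BMDM lists (Fisher's exact test, adjusted p under 0.05, a comparison chosen after the data were seen). Fam110a was marked in 12 stimulated BMDM lists and 0 HSC lists (exact p = 7.4e-07, adjusted p = 0.00231). Hist1h4j, Hist1h1c, Hist2h4, Hist1h4f and Hist1h4c, histone genes of which the H4 members are near-identical copies, were marked in 10 or 12 BMDM lists and 0 to 2 HSC lists. Ptgs2, the inducible cyclooxygenase gene, was marked in 9 and 0 (adjusted p = 0.0202), the lipoprotein receptor gene Lrp1 in 11 and 2 (adjusted p = 0.0258) and the cholesterol exporter gene Abcg1 in 12 and 4 (adjusted p = 0.0375). Marked in fewer BMDM lists were Runx1t1, a corepressor gene (0 and 11), Bcl11b, a T cell lineage factor gene (1 and 12), and Map7d2 (0 and 12). These 3 had a promoter peak in all 12 H3K4me3 lists of the stimulated cells as deposited, outside the top 10000 in most, and were held by 0 of the 12 H3K27ac lists. With 6 control libraries per state, or 6 diabetic libraries, 0 genes were called (242 and 276 at an unadjusted p under 0.05), where the adjusted test has the limit given above.

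H3K27ac lists of the same stimulated cells were read for the genes above. Il6, Il1b, Chil3 and Retnla were held by 0 of the 12, as for H3K4me3, whereas Cd68 was held by 5 and Csf1r by 7. Spi1 was held by all 12. Ipo7 had a mean H3K27ac rank of 3452 in diabetic and 2140 in control libraries, and Phf23 one of 1132 and 1977. For Foxp4, held by 3 diabetic and 4 control lists, the means were 9254 and 8466 with absent promoters set at place 10001. Of the 20 genes named for rank, 14 had an H3K27ac difference of the same sign as in H3K4me3, 5 of the opposite sign and 1, Hoxa7, no H3K27ac peak. The 5 were Smn1 (682 places in H3K27ac), Gpr108 (−141), Adar (−511), Eif3d (−467) and Zfp322a (−991). Tubgcp4 and Zscan29 share 1 promoter and are counted separately among the 14, where Ift57 (−28 places) and Letm2 (−55) differed little. The share of matching signs over all genes was not computed, and these differences were not tested.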

How the data were processed

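H3K4me3 was measured by ChIP-seq (antibody ab8580, 50-bp single reads) in 12 libraries grouped by label. Per the submitters' processing notes, Trim Galore 0.3.3, cutadapt 1.8, Bowtie2 2.2.6, Picard and MACS2 2.2.7.1 were used with GRCm38. Counts of reads are not in the lists, so depth is unknown. Peaks were called per library against the input of the same number. Each deposited peak has a ratio (fold enrichment), −log10 p, −log10 q and a score, which are the authors' values and were used to rank peaks within a list and to solve the pileups. Entries sharing an interval were joined. No peak passed a chromosome end (0 of 12 lists).

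Each list was limited to its first 10000 peaks by −log10 p. Promoters reached 1000 bp either side of 93513 start sites (GENCODE M21). Rank, and log2 summed width after centering each library on its median, were compared with limma 3.58.1 (trend) in genes marked in all 12 lists, presence with Fisher's exact test (scipy 1.17.1), and library values by exact permutation. Calls needed a Benjamini-Hochberg adjusted p under 0.05. The limma step was tested on simulated data. The effect of alternatives is given in the closing section. Fragment pileups were solved from fold and −log10 p, assuming a Poisson tail.

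Named genes were the 10 (rank, occupancy) or 6 (width) per direction with the smallest p, the study's genes, the extremes of each list and, against HSC, genes with the smallest p or from the lists. Others, and the comparisons with unstimulated cells and HSC by occupancy, were chosen after the values were seen. Genes on chromosome 18 were counted, not named, and some genes the rule picked are not reported here. Cxcl11, Mx2 and Clec7a were not matched to the protein-coding set used and were not analysed here. Members and lists were chosen with earlier results of these data known. Whether replicate numbers pair the libraries is not stated and was not settled. Correlations of same-numbered rank deviations ran from −0.072 to 0.093. Diabetic libraries 1 and 2 correlated best with the control library of their own number. Ranks agreed little between any libraries, so these correlations could hardly show a pairing.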

Additional observations from a re-analysis of the deposited data

Results flagged for a closer look

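Within each group of 6 libraries, the lowest and the highest value were compared with the rest by Dixon's test, which chance alone passes in about 1 in 20 groups. Of 74 sets of values tested, 14 held such a value. Libraries 3 had the fewest marked genes, 7774 in the diabetic group (others 8958 to 9355) and 8018 in the control group (others 8986 to 9384), and control library 3 the smallest median width, 760.5 bp (others 1084 to 1193).

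Among ranks, Phf23 stood at 3304 in diabetic library 2 (others 338 to 1111), Tubgcp4 and Zscan29, which share a promoter, at 3765 in diabetic library 1 (others 404 to 1506), and Irf5 at 7450 in diabetic library 4 (others 1087 to 2275). Smn1 stood at 3523 in control library 4 (others 7387 to 9400), Shq1 at 3996 in control library 6 (others 7 to 540) and Cplane1 at 2924 in control library 2 (others 311 to 901). Among widths, Serpinb6a was 1675 bp in diabetic library 5 (others 775 to 1038) and Klf3 3806 bp in diabetic library 2 (others 1841 to 2315). Control library 3 was the narrowest for Stt3a at 257 bp (others 496 to 621) and Gas6 at 633 bp (others 1006 to 1105).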

How the results depend on the processing

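Counts of called genes were recomputed under 28 alternatives for rank, 27 for width, 23 for occupancy and 26 for the difference between stimulated and unstimulated cells, among them top 5000 or 51382 peaks, ranking by fold, promoters of 500 or 2000 bp, 1 start site per gene and each library left out, over as few as 125 genes for rank and 40 for the difference between states. All gave 0 except width without diabetic library 5, which gave 1 (Serpinb6a). The lowest adjusted p over alternatives ran from 0.428 to 0.996 for rank, 8.5e-04 to 1.00 for width, 0.553 to 1 for occupancy and 0.414 to 0.986 for the difference between states. The replicate block, a fit with the library number as a term, called 0 genes for rank (104 at an unadjusted p under 0.05), 0 for width (76), 0 for occupancy (154) and 0 for the difference between states (64), although the numbers share no stated origin. Against HSC, control libraries only and diabetic libraries only gave 0 calls, with fewer libraries per test.

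The difference in median width changed sign, to −0.015 with 5000 peaks, −0.013 when ranked by fold, −0.057 without the 3 libraries of unclear scaling and −0.074 without the libraries numbered 3 (chosen after seeing the data). Separation became 0.0065 without the 3 libraries of unclear scaling (one-sided exact permutation p = 0.230). The causes were not tested. Leaving out 1 library at a time gave differences of −328 to 89.6 marked genes (the positive value without diabetic library 3), −0.095 to 0.051 in log2 width, −33.0 to −0.13 broad promoters, 0.024 to 0.049 in the GC relation and −0.013 to −0.0014 in separation. The lowest adjusted p among the 4 library values was 0.0866. Other settings moved values by more: the difference in marked genes was −942 when ranked by fold and −367.5 in the lists as deposited, and without the 3 libraries of unclear scaling the GC relation was 0.012 and the difference in broad promoters −38.6.

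The Serpinb6a width difference changed sign, to 0.068 with 51382 peaks and 0.11 in the lists as deposited. Peak lists carry no read depth. Ranks varied by over 2000 places between replicates, and even a difference of −4690 places (Phf23) had an adjusted p of 0.824 (limma), so 0 calls for rank do not exclude large shifts.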

Other observations

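Interferon-stimulated genes were also counted in the other cell states. Of the 29 genes, unstimulated control BMDM lists 1 to 6 held 14, 9, 8, 5, 5 and 9 and unstimulated diabetic lists 1, 2, 4, 5 and 6 held 8, 9, 6, 5 and 4. HSC lists held 2 to 5 in the diabetic and 3 to 7 in the control group. The labels do not say what the numbers stand for, and no batch is given.

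Liver X receptor α, encoded by Nr1h3 and active in cholesterol efflux, was marked in diabetic libraries 1 to 3 at ranks 4859, 9806 and 1527 and in 0 control lists, while its H3K27ac promoter was held by all 12. No occupancy test called this gene, and the share of all genes with the same pattern is not given. Diabetic libraries 1 and 2 are of unclear scaling. Diabetic library 3 had a low −log10 p at place 10000, 16.5. The part of these features in the Nr1h3 pattern was not tested.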
